A study of Drosophila melanogaster with 11 samples.

Results

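Bulk mRNA-seq of whole Drosophila melanogaster embryos was compared between 2 short windows late in embryogenesis, 14–14.5 h and 17–17.5 h after egg deposition, with 2 libraries per window. These 4 libraries are the members of the comparison, out of 11 bulk mRNA-seq libraries that also cover 2–4 h (3 libraries) and 14–17 h (4 libraries). Members were chosen by the developmental stage in their labels alone. All 4 come from wild-type Oregon-R embryos, with no treatment or allele named, laid in population cages and matured at 25 °C, with the chorion removed in bleach before RNA extraction. PolyA RNA was selected with oligo(dT). Replicates were independent collections on different days, each from pooled embryos, and the question is which organs and functions gained and lost RNA over these hours. Total estimated counts lay between 31895128 and 33732461 per library. Levels are in CPM, the estimated count of a gene relative to the scaled total of its library, and a floor of 3 counts is worth 0.0853 to 0.101 CPM, counting error only.

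By 14 h the organs of the fly embryo have formed, and the hours that follow are those of terminal differentiation. The epidermis and the tracheal tubes secrete cuticle, a layered matrix of the sugar polymer chitin and of proteins, which is later hardened and pigmented through products of dopamine metabolism. Muscles assemble contractile units and begin to twitch, neurons build synapses and become electrically active, the gut and the Malpighian (renal) tubules take up transport and digestion, and the embryo finally hatches as a feeding larva. A pulse of the steroid hormone ecdysone in mid embryogenesis is followed by waves of nuclear receptors, among them the products of Eip75B and ftz-f1.

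The gains were in gut, transport, nerve and energy genes. Digestive enzymes, gut mucins, ion transporters, neuropeptides, transmitter receptors, channels and the enzymes of sugar breakdown rose in most of their members. The losses were in genes of body covering, wiring and patterning. Most Tweedle and Osiris genes, the chitin-binding proteins Gasp and obst-A, axon guidance receptors, muscle fusion genes, patterning genes and the 4 death activators skl, grim, rpr and hid were lower at 17–17.5 h. Cuticle protein genes split into a set that rose and a set that fell. In whole embryos, fewer cells of a type and less RNA per cell cannot be told apart.

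The libraries of a window were close to each other. Over 7658 genes with at least 10 CPM in 1 window, the median absolute difference was 0.08 on the log2 scale within each window, against 0.43 to 0.46 between windows. Replicate 1 of 17–17.5 h nevertheless stood apart for a small set of genes. Of 7205 genes with at least 10 CPM in a library of that window, 21 were over 5-fold higher in replicate 1 than in replicate 2 (on CPM + 0.5) and 0 were over 5-fold lower, while at 14–14.5 h the corresponding counts were 0 and 2 of 7086. The set included Osi7, with 145 CPM in replicate 1 and 1.11 CPM in replicate 2, TwdlF, with 74.9 and 2.49 CPM, and CG10035, with 13.6 and 0.270 CPM. Many of the set were high at 14–14.5 h, where Osi7 was at 254 and 289.9 CPM and TwdlF at 2558 and 2498 CPM, whereas CG10035 was at 2.33 and 0.0869 CPM there and had a mean of 1437 CPM at 2–4 h. The gene link was alike, with 10.5 and 1.58 CPM at 17–17.5 h and a mean of 1220.4 CPM at 2–4 h. More broadly, 86 genes were over 100 CPM at 14–14.5 h and at least 10-fold lower later. Of these, 76 were higher in replicate 1 than in replicate 2 of 17–17.5 h, with medians of 11.9 and 3.41 CPM. The same held for 5766 of all 11267 tested genes, or 51.2%. It held for 21 of 86 genes that were at least 10-fold higher later and over 100 CPM then. Of 35 genes that were over 100 CPM at 2–4 h and under 5 CPM at 14–14.5 h, 22 were higher in replicate 1 of that window. In replicate 1 of 17–17.5 h, 32 of the 35 were higher. The part of other stages in this library was not tested, and list counts that move by over 1.5 times without it are given or marked beside their value.

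**Figure D1:**
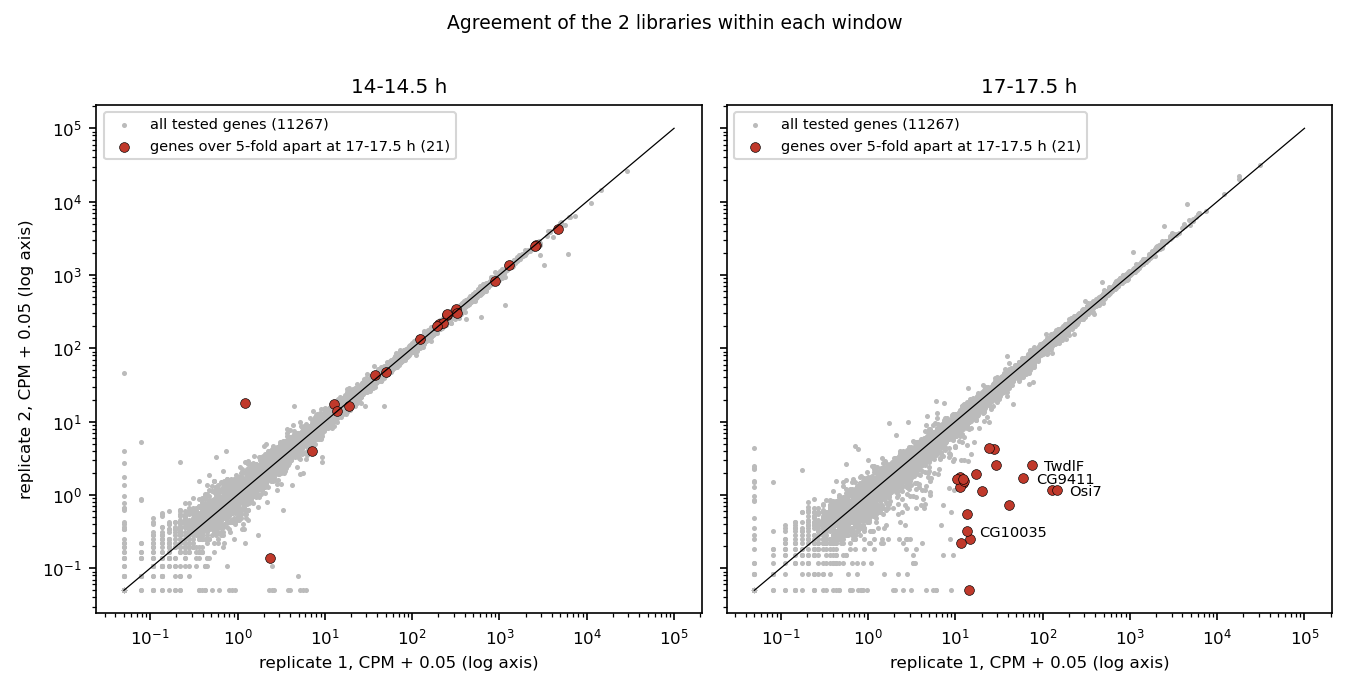
Level of each tested gene in replicate 1 (x axis) and replicate 2 (y axis) of each window, in CPM + 0.05 on log axes, with the 21 genes over 5-fold apart at 17–17.5 h in red. In the right panel these genes lie below the line of equality, Osi7 at 145 and 1.11 CPM, while in the left panel most of them lie on it.

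Markers of the main organs were checked first. The neuronal vesicle gene nSyb was at 451 and 429.5 CPM at 14–14.5 h, the muscle gene Mhc at 5031 and 5299 CPM and the glial gene repo at 20.4 and 19.5 CPM, and each passed 10 CPM in all 4 libraries. Uro, a Malpighian tubule marker of later larvae and adults, and Lsp1beta, a larval serum protein of the fat body, were at or below 0.253 CPM in every library. Egg shell and yolk protein genes summed to between 1.25 and 2.90 CPM per library. The heart marker Hand, the crystal cell marker lz and the salivary marker sage stayed below 10 CPM.

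One feature of the counting shapes the largest values. Reads were assigned to whole gene spans, introns included, and no source states that strand was used, so that a gene inside an intron of another shares its reads. Of 11267 genes tested, 5864 overlapped another gene and 963 lay wholly inside one. In 132 tested genes both libraries of 1 window were listed at 0 and the other window was not, 119 of them nested, and an exact 0 in such a gene can be a failed split of reads. The 12 largest rises and the 12 largest falls by fold change were all of this kind, 23 of the 24 nested in another gene. Eglp4, nested in its paralogue Eglp2, was listed at 0 in both libraries of 14–14.5 h and at 219 and 225 CPM at 17–17.5 h, and CG2962, nested in ATPsyndelta, was listed at 7293 and 6303 CPM and then at 0 in both libraries. The other rises of this kind were PGRP-LB, CG30160, CG17930, CG8661, CG30479, Cyp4p1, CG44098, Cyp6d5, CG14630, Twdlalpha and CG5810, and the falls were CG15005, CG9518, CG13737, Cpr64Ab, b6, CG45065, CG45064, CG13196, CG13272, CG31710 and CG16959. No fold is given for them, and their levels are uncertain.

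Across all 11267 tested genes, 3607 were higher at 17–17.5 h, which is 32.0%, and 3554 were lower, which is 31.5% (edgeR's quasi-likelihood test on rounded estimated counts, two-sided, Benjamini-Hochberg adjusted p under 0.05). The median log2 fold change of all tested genes was -0.04. At least 2-fold, 1776 genes were higher, or 15.8%, and 1085 were lower, or 9.63%. The summed levels that follow are shares of the scaled library total, not of raw counts. Genes at least 2-fold higher held between 6.8% and 6.88% at 14–14.5 h and between 25% and 27% at 17–17.5 h. Genes at least 2-fold lower held between 15.1% and 15.4% and then between 2.51% and 2.59%. All fold changes below are 17–17.5 h relative to 14–14.5 h from this fit, with the standard error of the log2 value after ±, levels are CPM on TMM-scaled library sizes, and CPM is not per gene length, so levels are not compared between genes. Pairs of values are replicates 1 and 2.

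**Figure D2:**
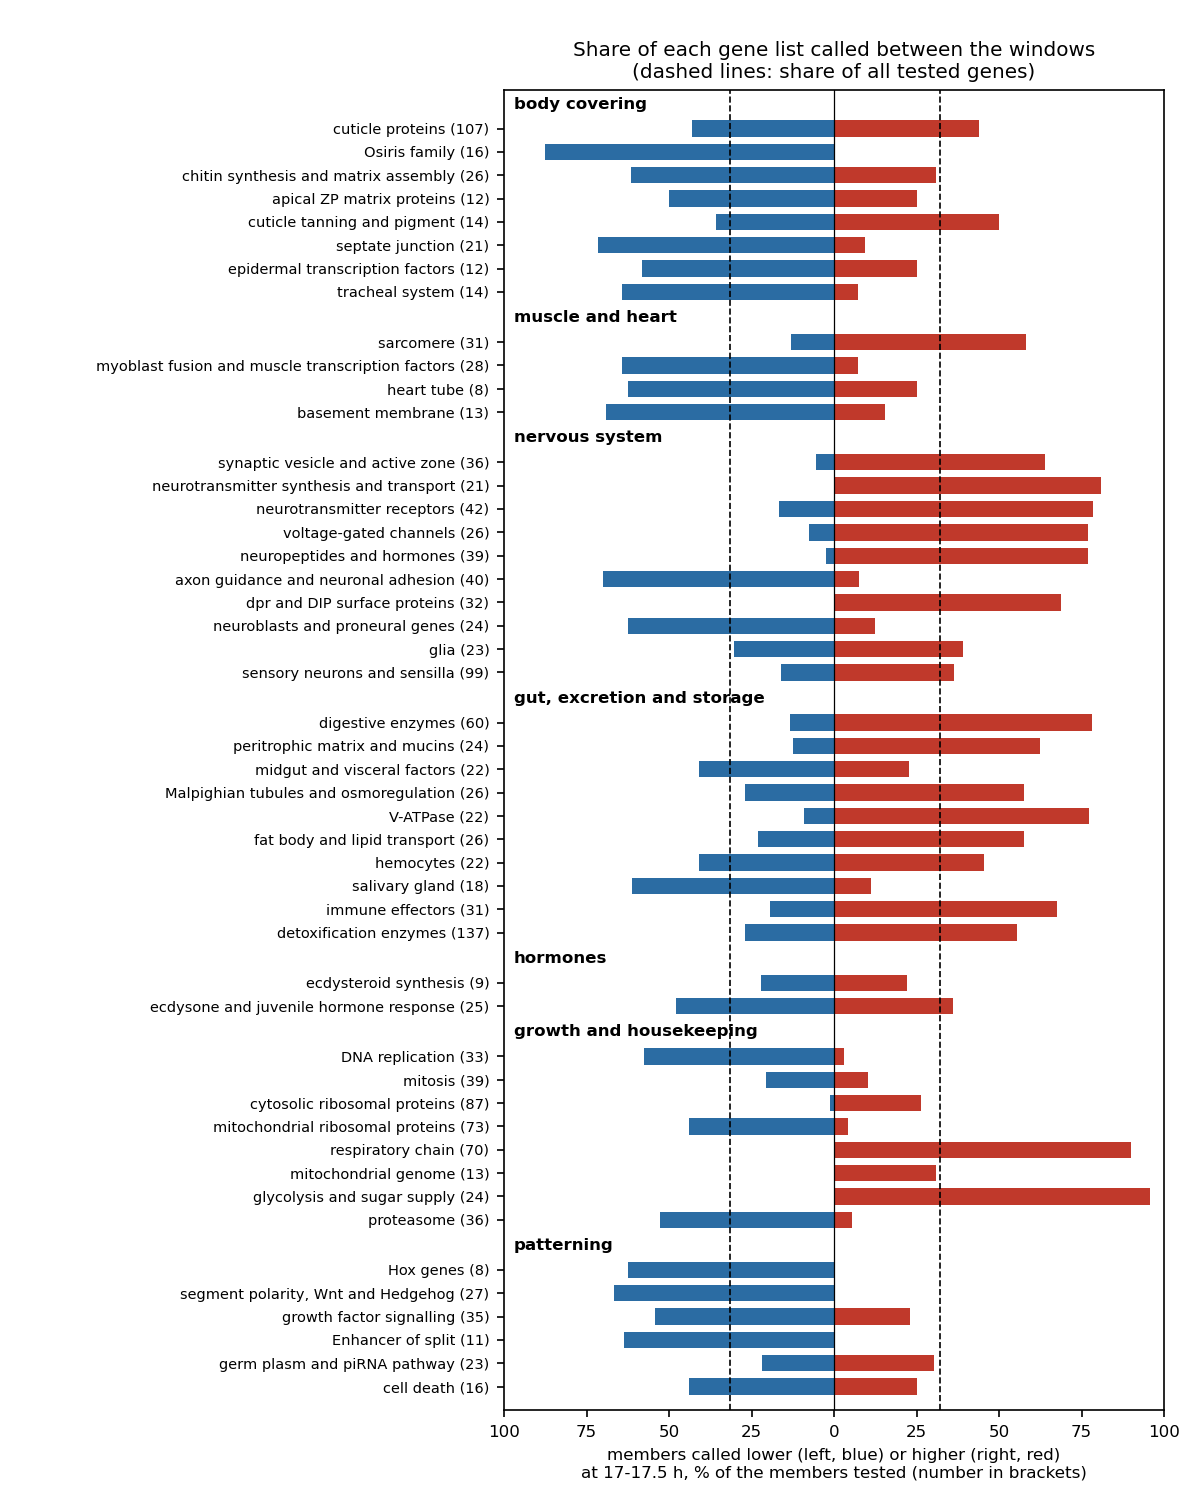
Share of the tested members of each gene list (number in brackets) that were called lower (blue, left) or higher (red, right) at 17–17.5 h, with dashed lines at the shares of all tested genes, 31.5% and 32.0%. Digestion, transmission and sugar breakdown extend to the right, with 23 of 24 glycolysis genes higher, and Osiris, axon guidance and patterning lists extend to the left, with 14 of 16 Osiris genes lower.

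Among genes that overlap no other gene and are not listed at 0, a restriction chosen after the values were seen, the largest falls included genes of the cuticle and mucin families. CG13159 went from 4645 and 4196 CPM to 27.5 and 4.18 CPM, CG15022 from 6369 and 6238 CPM to 45.5 and 17.2 CPM and the gene nur from 2134 and 2209 CPM to 13.9 and 2.87 CPM. The cuticle proteins Cpr66Cb, Cpr23B, Twdlbeta and TwdlD and the mucin Muc91C were also among the 12, which ranged from a log2 fold change of -8.20 ± 0.65 for CG13048 to -7.12 ± 0.62 for Muc91C, with CG13049, CG14147 and CG11380 between them. In every one of these 12 genes both late libraries lay below both early ones, which the rule for choosing them required. The 12 largest rises were nearly all genes without a functional name. CG14326 went from 1.54 and 1.19 CPM to 68.7 and 84.4 CPM (5.81 ± 0.17), and CG33270 from 7.39 and 10.5 CPM to 298 and 324 CPM (5.12 ± 0.18). Between them lay CG14324, CG32248, CG14374, CG7365, CG33272, CG33500, CG34281, CG5162, CG5767 and Dso1, a gene of the Toll-responsive Daisho peptides, which reached 10.6 and 11 CPM.

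The 107 tested cuticle protein genes, of 125 matched, split evenly into 47 higher and 46 lower, 40 and 37 of them at least 2-fold, with a median log2 fold change of -0.02. Most bind chitin through a conserved domain. Cpr47Eg was at 103 and 110 CPM and rose to 1402 and 1624 CPM (log2 fold change 3.83 ± 0.10, adjusted p = 2.23e-06). Cpr76Bb rose from 2.53 and 3.62 CPM to 83.3 and 88.6 CPM, Cpr76Ba from 3.27 and 4.09 CPM to 80.1 and 87.8 CPM and Cpr67B from 3.16 and 2.49 CPM to 57.7 and 62.7 CPM. In each, both late libraries lay far above both early ones. For Cpr76Bb, Cpr76Ba and Cpr67B, windows that did not overlap were a condition of naming, and Cpr47Eg was picked after its values were seen. In the opposite direction, Cpr66Cb fell from 191 and 196 CPM to 1.36 and 0.169 CPM (log2 fold change -7.95 ± 0.39, adjusted p = 1.56e-05), and Cpr23B from 34.9 and 40.5 CPM to 0.126 and 0.270 CPM. Larval cuticle genes of the Lcp65A cluster (3L:6130386–6151803, dm6) mostly rose, 7 of 10 tested against 1 that fell. Lcp65Ag2 went from 1674 and 1712 CPM to 4726 and 5544 CPM and Lcp65Ag3 from 689 and 742 CPM to 3070 and 3692 CPM, while Lcp65Ad fell from 4.44 and 5.27 CPM to 0.379 and 0.270 CPM. The split between Lcp65Ag1, Lcp65Ag2 and Lcp65Ag3 is uncertain because they are near copies. Without replicate 1 of 17–17.5 h, 48 cuticle protein genes were higher and 43 lower, and among genes that overlap no other, 41 and 37 of 91.

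Tweedle genes, which encode cuticle proteins that shape the larval body, leaned to the lower side. Of 25 tested, 19 fell and 5 rose, with a median log2 fold change of -3.76. TwdlD was at 1653 and 1656 CPM and then at 16.3 and 5.23 CPM, TwdlW at 1679 and 1625 CPM and then at 29.1 and 25.4 CPM, and TwdlC at 857 and 838 CPM and then at 17.4 and 10.6 CPM. In all 3 genes, picked after their values were seen, the late libraries lay far below the early ones. TwdlN moved the other way, from 396 and 444 CPM to 2880.1 and 3409 CPM (log2 fold change 2.90 ± 0.11, adjusted p = 5.43e-06), and TwdlP rose from 20.4 and 21.5 CPM to 134 and 160.2 CPM. In a run of 13 Tweedle genes on chromosome 3R (26619118–26693590, dm6), 8 fell and 4 rose, so neighbours moved in opposite directions. The gene at the lower end of the family, TwdlS, was listed at 0 at 17–17.5 h, and the gene at the upper end, Twdlalpha, at 0 at 14–14.5 h.

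Osiris genes encode insect-specific membrane proteins that are expressed in cuticle-secreting cells, and 20 of them lie in 168 kb of chromosome 3R (6173549–6341424, dm6). Of 23 matched, 16 were tested, and 14 fell and 0 rose. Osi15 dropped from 2629 and 2536 CPM to 41.1 and 0.674 CPM (log2 fold change -6.95 ± 1.52, adjusted p = 0.00883), Osi20 from 639 and 669 CPM to 9.49 and 0.101 CPM (log2 fold change -7.07 ± 1.10) and Osi2 from 239.8 and 247 CPM to 20.6 and 21.1 CPM (log2 fold change -3.54 ± 0.07). For Osi2 the late libraries were close, whereas for Osi15 and Osi20 replicate 1 of 17–17.5 h was far above replicate 2, and both were far below the early libraries. Osi6 and Osi7 were the exceptions to the calls, with adjusted p = 0.241 and 0.287. Osi6 was at 249.7 and 288 CPM early and at 127 and 1.11 CPM late. In Osi6 and Osi7 both late libraries lay below both early ones but far apart from each other. The late libraries thus gave the same direction, while the size of the fall differed between them. The median log2 fold change of the family stayed negative when either library of 17–17.5 h was left out. Fewer members were called when either library of 14–14.5 h was left out, Osi15 not among them.

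Chitin genes fell more often than they rose, 16 against 8 of 26, with a median log2 fold change of -0.55. Among the 12 that overlap no other gene, 6 fell and 5 rose, with a median of -0.32, so that the lean to falls was not seen there. Gasp, an obstructor protein that binds chitin in the tracheal tubes and the body wall, fell from 4944 and 4887 CPM to 154 and 123 CPM (log2 fold change -5.15 ± 0.12, adjusted p = 2.13e-06), and obst-A, a scaffold for chitin assembly, from 1315 and 1323 CPM to 41.1 and 33.3 CPM. The chitin deacetylases serp and verm fell from 1016 and 1012 CPM to 184 and 186 CPM and from 1258 and 1283 CPM to 316 and 331 CPM, and the related gene Cda4 from 643 and 665 CPM to 109 and 116 CPM. The chitin synthase gene kkv changed less, from 154 and 166 CPM to 108 and 113 CPM (log2 fold change -0.53 ± 0.07), and knk, which organises new chitin, from 25.4 and 24.8 CPM to 11 and 10.9 CPM (log2 fold change -1.20 ± 0.07). Cht5, a chitinase that degrades old cuticle at moults, rose from 12.2 and 16.1 CPM to 445 and 482 CPM (log2 fold change 5.03 ± 0.15, adjusted p = 3.18e-06). The chitinase-like Idgf1, nested in CG5888, rose from 7.48 and 8.92 CPM to 91.5 and 94.6 CPM, Idgf3 from 62.9 and 67.1 CPM to 144 and 140.5 CPM and the deacetylase Cda9 from 1.25 and 1.71 CPM to 13.2 and 14.3 CPM.

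**Figure D3:**
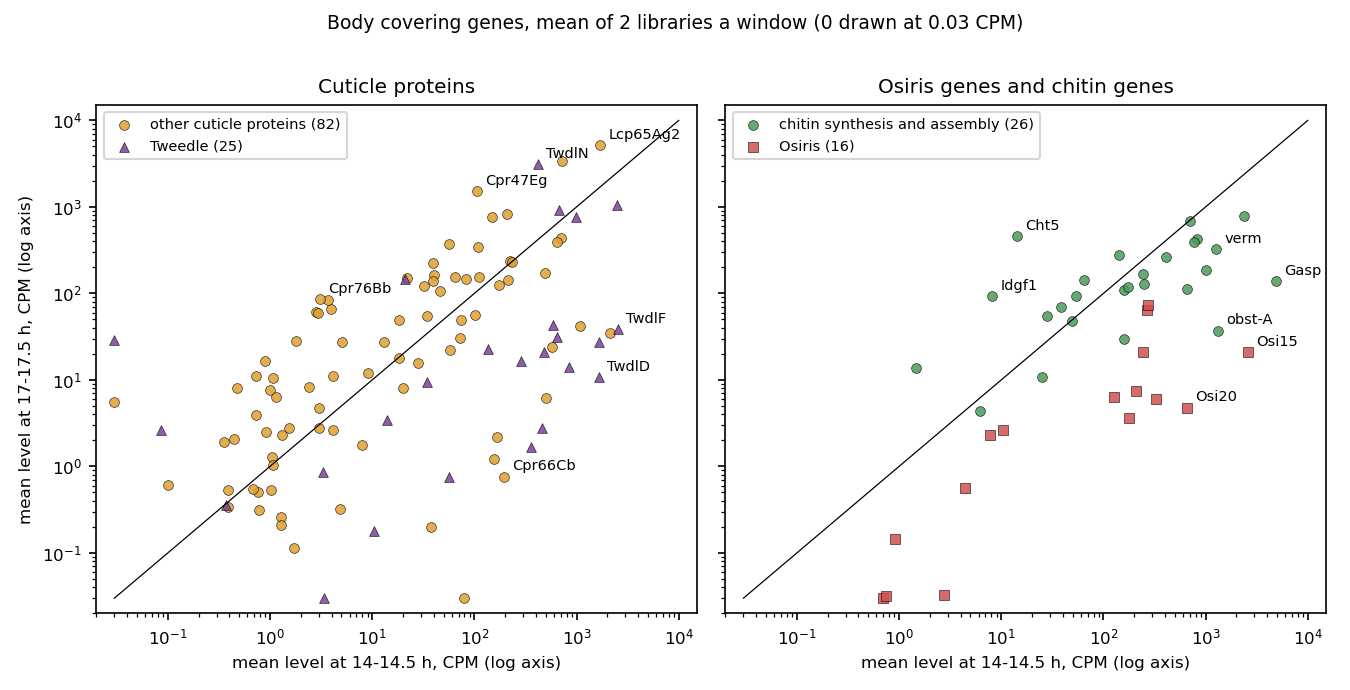
Mean level of each tested member at 14–14.5 h (x axis) and 17–17.5 h (y axis), in CPM on log axes, with 2 libraries per mean, a line of equality and means of 0 drawn at 0.03 CPM. The left panel shows 25 Tweedle and 82 other cuticle protein genes on both sides of the line, and the right panel shows 16 Osiris genes below it and the chitin genes with Cht5 above and Gasp below it.

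Zona pellucida (ZP) proteins line the apical surface of epithelia under the cuticle. Of 12 tested, 6 fell and 3 rose, and without replicate 2 of 14–14.5 h 3 fell. Among the 8 that overlap no other gene, 3 fell and 3 rose. The gene cyr fell from 40.1 and 37.6 CPM to 2.09 and 1.25 CPM, zye from 1162 and 1134 CPM to 208 and 196 CPM and fw from 45.6 and 47.3 CPM to 10 and 9.31 CPM. pio, a partner of dpy in holding the tracheal lumen and the muscle attachments, rose from 74.8 and 79 CPM to 258 and 291 CPM. dpy itself was at 660.5 and 610.3 CPM and 650.5 and 682 CPM and did not pass the test (adjusted p = 0.402). The ZP gene m was low and fell, from 4.09 and 4.61 CPM to 1.42 and 0.607 CPM.

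Genes of tanning and pigment rose in 7 of 14 and fell in 5. ple, tyrosine hydroxylase at the head of dopamine synthesis, rose from 35.2 and 37.6 CPM to 207 and 236 CPM (log2 fold change 2.61 ± 0.09, adjusted p = 4.79e-06). e, which conjugates dopamine for light cuticle, rose from 11.8 and 11.6 CPM to 63.3 and 67.5 CPM, Pu, which makes the cofactor of ple, from 28.4 and 28.2 CPM to 65.7 and 74.1 CPM, and yellow-f2 from 7.14 and 7.79 CPM to 26.3 and 28.6 CPM. Ddc, dopa decarboxylase, rose less, from 51.9 and 56.6 CPM to 74.5 and 79.6 CPM (log2 fold change 0.51 ± 0.07). The laccase gene stw fell from 300.1 and 293 CPM to 100.2 and 103.6 CPM, and yellow-e from 18.2 and 18 CPM to 2.72 and 3.54 CPM. The 4 libraries did not overlap between windows in any of these genes, a condition for naming all of them but Ddc.

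The septate junction seals epithelia against leakage, and 15 of its 21 genes fell while 2 rose. l(2)gl, a polarity gene of the basolateral side, fell from 1250.5 and 1225 CPM to 378 and 356 CPM, bark from 253 and 262 CPM to 119 and 122 CPM, sinu from 175 and 174 CPM to 94.5 and 99.4 CPM, Nrx-IV from 212 and 208 CPM to 139 and 146 CPM and Mcr from 222 and 226 CPM to 152 and 160.3 CPM. Those that rose were cora, from 886 and 895 CPM to 1366 and 1464 CPM, and Atpalpha, the sodium pump, from 2521 and 2393 CPM to 3473 and 3642 CPM. Of 12 epidermal transcription factors 7 fell and 3 rose. sr, which specifies tendon cells, fell from 105 and 89.5 CPM to 20.2 and 20 CPM, vvl from 242 and 216 CPM to 126 and 141 CPM and ovo, which drives the trichome programme, from 83.6 and 78.8 CPM to 50.9 and 50.6 CPM. grh, a regulator of cuticle and barrier genes, rose from 131 and 132 CPM to 179 and 199 CPM. Tracheal genes fell in 9 of 14 and rose in 1, apt, which did not pass the test when either library of 14–14.5 h was left out, while 2 rose without replicate 1 of 17–17.5 h. Among the 5 tracheal genes that overlap no other gene, 2 fell. btl, the FGF receptor that guides branching, fell from 11.9 and 12.3 CPM to 3.51 and 3.47 CPM, its ligand bnl from 43.7 and 39 CPM to 16.6 and 15.5 CPM, uif from 432 and 431 CPM to 113 and 108 CPM, and the fate genes trh (log2 fold change -0.39 ± 0.05) and dysf (log2 fold change -0.72 ± 0.14) changed less.

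In muscle, more contractile genes rose than fell, and more genes of muscle building fell than rose. Of 31 sarcomere genes, 18 rose and 4 fell, with a median log2 fold change of 0.34, and every one of the 31 was higher in replicate 2 than in replicate 1 of 17–17.5 h. With all 11 libraries in the fit, 10 rose and 2 fell, and with upper-quartile factors 16 rose and 8 fell. Zasp66, a protein of the Z-disc that joins thin filaments, rose from 374 and 362 CPM to 2272 and 2649 CPM (log2 fold change 2.74 ± 0.09, adjusted p = 3.82e-06). Its relative Zasp52 rose from 502 and 462 CPM to 1659 and 1939.7 CPM, the giant M-band kinase gene Obsc from 290.3 and 303 CPM to 809.7 and 928 CPM and the nesprin gene Msp300 from 1522 and 1462 CPM to 2872 and 3149 CPM. The filament genes moved little, and Mhc and wupA do not pass the test when replicate 1 of 14–14.5 h is left out. Mhc, myosin heavy chain, went from 5031 and 5299 CPM to 6149 and 6895 CPM (log2 fold change 0.34 ± 0.06), Act57B, a larval muscle actin, from 14431 and 14628 CPM to 17914 and 20232 CPM (log2 fold change 0.39 ± 0.06), and wupA, troponin I, from 2023 and 1972 CPM to 2156 and 2504 CPM (log2 fold change 0.22 ± 0.08, adjusted p = 0.0488). Another actin, Act87E, fell from 2307 and 2286 CPM to 1439 and 1651 CPM, and a troponin C gene, TpnC73F, from 1099.5 and 1077 CPM to 742 and 856 CPM.

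Of 28 genes of myoblast fusion and muscle fate, 18 fell and 2 rose, and without replicate 1 of 14–14.5 h 10 fell, while 1 rose without replicate 2. The fusion genes rols and blow fell from 77 and 77.4 CPM to 37.8 and 37.4 CPM and from 34.1 and 36.2 CPM to 14.5 and 14.9 CPM, and twi, the mesoderm determinant, from 14.4 and 13.2 CPM to 7.37 and 7.25 CPM. kirre, a founder cell adhesion receptor whose span holds other genes, rose from 56.2 and 52.1 CPM to 121 and 129 CPM, while its paralogue rst, counted inside that span, fell from 90 and 86 CPM to 37.5 and 37.1 CPM. Mef2, which activates muscle genes, was at 211 and 201 CPM and 179 and 188 CPM and did not pass the test (adjusted p = 0.0705). In the heart tube, 5 of 8 genes fell and 2 rose, prc, a collagen-like matrix protein around the heart, from 496 and 533 CPM to 1217 and 1286 CPM, and the pacemaker channel Ih from 161 and 150.1 CPM to 324 and 347 CPM. In the basement membrane, 9 of 13 genes fell and 2 rose, but 0 rose without replicate 1 of 14–14.5 h, with upper-quartile factors or with all 11 libraries in the fit, and 1 without replicate 2 of either window. LanA fell from 1459 and 1467 CPM to 846 and 838 CPM, LanB1 from 774 and 784 CPM to 390.3 and 395 CPM, LanB2 from 760.4 and 784 CPM to 368 and 356 CPM and wb from 98.3 and 93.6 CPM to 27.6 and 25.9 CPM. The collagen IV gene Col4a1 rose slightly (log2 fold change 0.19 ± 0.05, adjusted p = 0.0183), a call that is lost without replicate 1 of 14–14.5 h or replicate 2 of 17–17.5 h, and vkg did not pass the test (log2 fold change 0.14 ± 0.05, adjusted p = 0.0653).

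In the nervous system most genes of transmission rose and most genes of wiring and of neuroblasts fell. Of 39 neuropeptide and hormone genes, 30 rose and 1 fell, Ilp4, with a median log2 fold change of 1.33. Dh44, a diuretic peptide related to corticotropin-releasing factor, rose from 11.4 and 13.2 CPM to 101.2 and 103 CPM (log2 fold change 3.05 ± 0.08, adjusted p = 2.23e-06), and Dh31, a calcitonin-like diuretic peptide, from 11.2 and 13.2 CPM to 73.8 and 73.8 CPM (log2 fold change 2.60 ± 0.08). Tk, a tachykinin, rose from 6.94 and 8.37 CPM to 25.5 and 24 CPM. Most of the other genes were low. Akh, which mobilises stored fuel, rose from 1.85 and 1.45 CPM to 4.81 and 4.99 CPM, and Eh, which triggers ecdysis behaviour, from 1.28 and 1.25 CPM to 2.47 and 1.96 CPM (adjusted p = 0.0301), while Ilp2, nested in CG32052, was listed at 0 early and at 0.917 and 0.944 CPM late.

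Genes for making and moving transmitters rose in 17 of 21 and fell in 0. ChAT, which makes acetylcholine, rose from 50.2 and 50.5 CPM to 122 and 121 CPM, Gad1, which makes GABA, from 80.1 and 81.3 CPM to 175 and 184 CPM, and VGlut, the vesicular glutamate transporter, from 110.1 and 101.0 CPM to 141 and 141 CPM. Among 42 receptors 33 rose and 7 fell. All 10 nicotinic acetylcholine receptor subunits rose, nAChRalpha6 from 162 and 150.1 CPM to 359.6 and 359 CPM. The glutamate receptor subunits of the neuromuscular junction moved the other way in 3 of 5, GluRIID from 24.7 and 25.3 CPM to 7.72 and 7.92 CPM, GluRIIE from 58.1 and 59.8 CPM to 32.9 and 35.3 CPM and GluRIIC from 42.6 and 42.5 CPM to 26.4 and 27.6 CPM. GluRIIA and GluRIIB differed from these, GluRIIB with log2 fold change -0.28 ± 0.11 (adjusted p = 0.0724) and GluRIIA with log2 fold change 0.69 ± 0.08 (adjusted p = 0.000752). Of 26 voltage-gated channel genes 20 rose and 2 fell, or 1 without replicate 1 of either window or without replicate 2 of 14–14.5 h. para, the sodium channel of the action potential, rose from 505 and 473 CPM to 917 and 985 CPM and the potassium channel gene Sh from 346 and 302 CPM to 739 and 803 CPM, and cac, the presynaptic calcium channel, less (log2 fold change 0.22 ± 0.06).

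Vesicle and active zone genes rose in 23 of 36 and fell in 2, with a median log2 fold change of 0.31. Among the 14 that overlap no other gene, 5 rose and 2 fell, with a median of 0.14, a share of rises near that of all tested genes (32.0%). nSyb rose from 451 and 429.5 CPM to 641 and 678 CPM, Syt1, the calcium sensor of release, from 454 and 421 CPM to 592 and 637 CPM, and the kinesin gene unc-104 from 188 and 186 CPM to 374 and 390.4 CPM, while the scaffold gene brp did not pass the test (log2 fold change 0.19 ± 0.07, adjusted p = 0.0557). Dpr and DIP genes encode surface proteins that pair on neurons, and 22 of 32 rose and 0 fell, led by dpr3, from 16.3 and 14.5 CPM to 40.3 and 44.1 CPM. Axon guidance genes went the other way, 28 of 40 lower and 3 higher. Fas3, a homophilic adhesion protein of axons and epithelia, fell from 651 and 652 CPM to 129 and 129 CPM (log2 fold change -2.34 ± 0.06, adjusted p = 2.23e-06), robo2, a Slit receptor, from 77.9 and 78.2 CPM to 33.1 and 26.7 CPM, sli, its ligand at the midline, from 405 and 392.3 CPM to 214 and 204 CPM, comm from 35.9 and 34.9 CPM to 16.2 and 17.2 CPM, and fra, the netrin receptor, from 127 and 119.6 CPM to 83.7 and 77.6 CPM.

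Neuroblast and proneural genes fell in 15 of 24 and rose in 3, and without replicate 1 of 14–14.5 h 9 fell. insc, which orients neuroblast division, fell from 97.9 and 102 CPM to 14.8 and 12.1 CPM (log2 fold change -2.90 ± 0.10, adjusted p = 4.24e-06). The low neural stem cell genes ase, wor and dpn fell to 4.17 and 3.27, 4.65 and 3.54 and 1.83 and 2.39 CPM. Of 23 glial genes 9 rose and 7 fell, or 39.1% and 30.4%, near the shares of all tested genes (32.0% and 31.5%). The fate gene repo fell from 20.4 and 19.5 CPM to 12 and 12 CPM, moody, a receptor of the blood-brain barrier nested in CG4313, from 94.5 and 92.3 CPM to 50.6 and 49.6 CPM and wrapper, a midline glia gene, from 18.9 and 19 CPM to 9.33 and 8.50 CPM. Gs2, glutamine synthetase, rose from 158 and 168 CPM to 862 and 885 CPM and Tret1-1, a trehalose transporter counted inside Roc2, from 30.6 and 34.2 CPM to 270.1 and 292 CPM.

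Digestive enzymes had the highest median log2 fold change of the 51 lists. Of 60 digestive enzyme genes 47 rose, 44 of them at least 2-fold, and 8 fell, with a median log2 fold change of 3.31, and their summed level went from 751 and 854 CPM to 4020 and 3755 CPM. All 10 trypsins and all 13 Jonah proteases tested rose, as did 8 of 9 maltases. alphaTry rose from 3.64 and 4.58 CPM to 138 and 131 CPM (log2 fold change 5.03 ± 0.10, adjusted p = 1.73e-06), the Jonah protease Jon65Aiv from 39.3 and 46.7 CPM to 443 and 406 CPM, its relative yip7 from 28.4 and 38 CPM to 448 and 445 CPM and the maltase gene Mal-A1 from 2.27 and 3.94 CPM to 100.4 and 95 CPM. Mal-A2 rose least among the maltases that passed (log2 fold change 0.60 ± 0.08), and Mal-B1, nested in Pde1c and under 1 CPM, did not pass the test (log2 fold change -0.51 ± 1.12). How reads divide between near copies of trypsin and Jonah genes is uncertain, but the families moved in 1 direction. The lipase gene Lip1 fell from 77.1 and 76.3 CPM to 4.96 and 3.94 CPM and the sterol-binding Npc2g from 28.5 and 29.6 CPM to 9.58 and 9.37 CPM. Without replicate 2 of 14–14.5 h 5 members fell.

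Genes of the peritrophic matrix, the chitin and mucin sleeve around food, rose in 15 of 24 and fell in 3. Muc26B rose from 237 and 248 CPM to 2696 and 2898 CPM, Muc18B from 20.8 and 28.1 CPM to 463 and 481 CPM, Muc55B from 9.64 and 14.6 CPM to 259 and 265 CPM and Peritrophin-15a from 0.398 and 0.608 CPM to 19.5 and 15.5 CPM. Muc91C fell from 1079.9 and 956.5 CPM to 11.6 and 2.93 CPM, and Peritrophin-A from 117 and 111 CPM to 38.8 and 41.8 CPM. Of 22 transcription and signalling genes that pattern the midgut, 5 rose and 9 fell, or 22.7% and 40.9%. Among all tested genes the shares were 32.0% and 31.5%. The number that rose was lower without replicate 2 of 14–14.5 h. GATAe, the endodermal regulator of digestive genes, fell from 100.9 and 102 CPM to 66.1 and 65.3 CPM, and lab, which specifies copper cells, was at 27.2 and 23.7 CPM and 25.8 and 24.7 CPM (adjusted p = 0.896).

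Transport genes of the Malpighian tubules rose in 15 of 26 and fell in 7. Among the 11 that overlap no other gene, 6 rose and 4 fell. Irk2, an inward rectifier potassium channel, rose from 10.6 and 12.7 CPM to 168 and 165 CPM (log2 fold change 3.83 ± 0.09, adjusted p = 2.16e-06), NaPi-T, a phosphate transporter, from 1.56 and 1.77 CPM to 34.6 and 32.7 CPM, the aquaporin gene Drip from 33.8 and 34.1 CPM to 123 and 125 CPM, the proton exchanger gene Nha2 from 17 and 17.8 CPM to 79.4 and 79.3 CPM, and the chloride channel genes Best1 and ClC-a from 14.1 and 15.8 CPM to 53.7 and 58 CPM and from 33.8 and 36.2 CPM to 70.3 and 76.4 CPM. Those that fell included pigment and purine genes. Eglp2, whose span holds Eglp4, also fell, from 136.8 and 153.1 CPM to 55.8 and 53.2 CPM. ry, xanthine dehydrogenase, fell from 31 and 33 CPM to 12 and 10.5 CPM, v, which starts brown pigment synthesis, from 29.9 and 36.3 CPM to 13.8 and 13.4 CPM and w, a pigment precursor transporter counted inside kirre, from 22.9 and 24.7 CPM to 13.1 and 12.3 CPM. V-ATPase, the proton pump that drives this transport, rose in 17 of 22 subunits and fell in 2. Vha100-2 went from 211 and 220.3 CPM to 519 and 526 CPM and Vha13 from 263 and 291 CPM to 614 and 619.7 CPM.

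**Figure D4:**
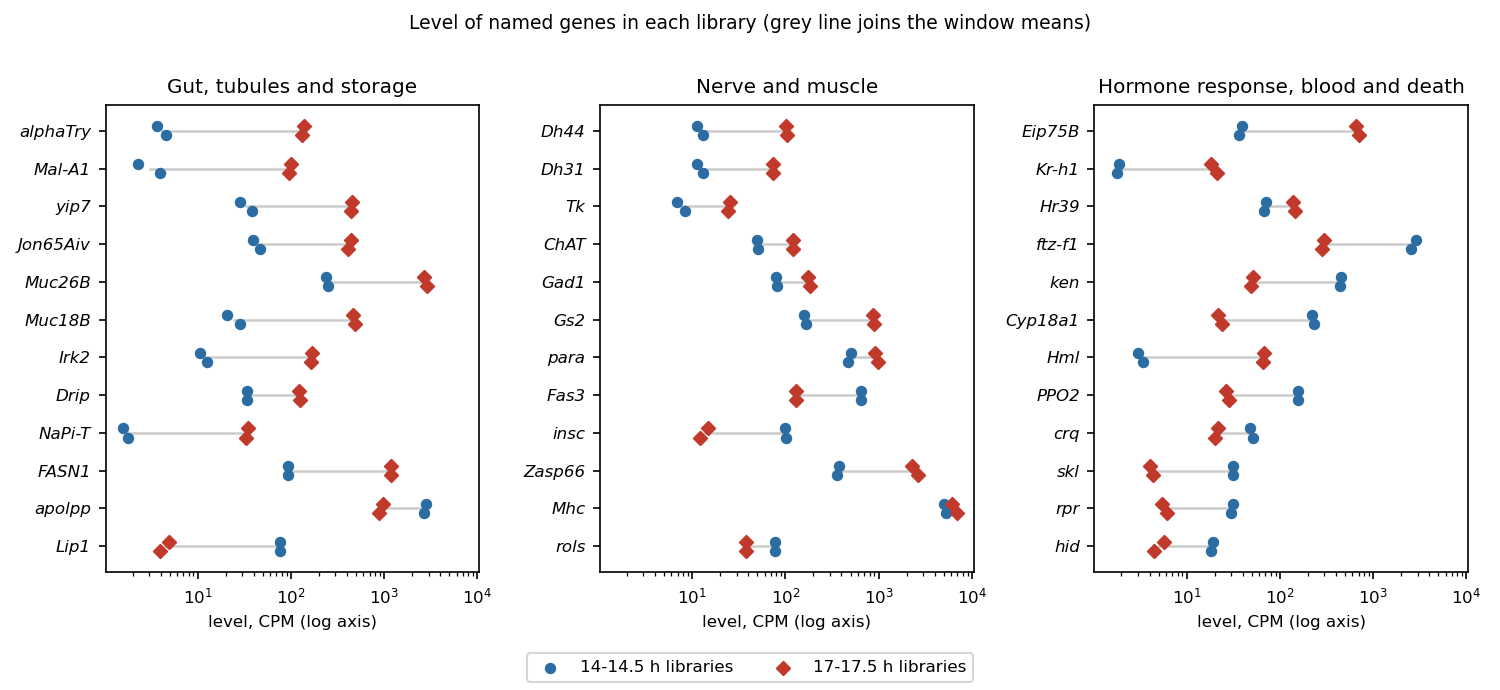
Level of 36 named genes in each library, in CPM on a log axis, with 14–14.5 h as blue circles, 17–17.5 h as red diamonds and a grey line between the window means. The pairs of a window lie close together beside the distance between windows, as for Irk2 and ftz-f1, and Mhc shows the smallest step.

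In the fat body and lipid list, 15 of 26 genes rose and 6 fell. FASN1, fatty acid synthase, rose from 93.1 and 94 CPM to 1196 and 1189 CPM (log2 fold change 3.67 ± 0.06, adjusted p = 1.73e-06), with the lipid droplet gene Lsd-1 going from 12.1 and 11.7 CPM to 57.3 and 60.8 CPM, the phosphatase gene Lpin from 130 and 136 CPM to 392.4 and 416 CPM and the desaturase gene Desat1 from 112 and 123 CPM to 325 and 328 CPM. apolpp, the main lipoprotein of the blood, fell from 2806 and 2676 CPM to 962 and 884 CPM. Among detoxification genes 76 of 137 rose and 37 fell. Of 71 cytochrome P450 genes 40 rose and 19 fell, and the highest and lowest fold changes belong to genes listed at 0 in 1 window.

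Blood cell genes moved in both directions, 10 higher and 9 lower of 22. These are 45.5% and 40.9%, against 32.0% and 31.5% of all tested genes. Hml, a clotting protein of plasmatocytes, rose from 3.01 and 3.42 CPM to 67.6 and 66.2 CPM (log2 fold change 4.38 ± 0.08, adjusted p = 1.73e-06), fon, another clot protein, from 206 and 232 CPM to 779.6 and 807 CPM, the scavenger receptor gene Sr-CI from 22.3 and 24.9 CPM to 62.7 and 71.1 CPM and the phagocytic receptor gene NimC1 from 8.24 and 8.95 CPM to 17.2 and 18.7 CPM. The prophenoloxidases of crystal cells fell, PPO2 from 156 and 155 CPM to 26.4 and 28.7 CPM and PPO1, counted inside Elk, from 177 and 177 CPM to 8.10 and 8.83 CPM. crq, which takes up dead cells, fell from 47.5 and 51.1 CPM to 21.8 and 20 CPM, and Pxn, a matrix peroxidase, from 94.3 and 96 CPM to 47.5 and 47.8 CPM. Immune effectors rose in 21 of 31 and fell in 6. BomS3, a Bomanin peptide of the Toll response, rose from 3.92 and 7.62 CPM to 131 and 136 CPM, IM33 from 30.3 and 34.7 CPM to 357 and 395 CPM and Tep4 from 69.1 and 80.2 CPM to 219 and 236 CPM, whereas Tep2 fell from 121 and 127 CPM to 31.4 and 30.6 CPM and PGRP-LA from 29.2 and 28.8 CPM to 7.59 and 6.78 CPM. Salivary gland genes fell in 11 of 18 and rose in 2, the glue genes Sgs7 and Sgs8 at no more than 1.83 CPM, and 1 rose without replicate 1 of 17–17.5 h or replicate 2 of 14–14.5 h. pip, a sulfotransferase of the gland, fell from 229 and 224 CPM to 34.8 and 28.9 CPM, the fate gene sage from 4.80 and 4.61 CPM to 1.93 and 1.75 CPM, PH4alphaSG1 from 6.31 and 6.84 CPM to 1.33 and 0.674 CPM and CrebA, the secretory pathway regulator, from 85.4 and 87.6 CPM to 60.9 and 59.3 CPM.

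Genes of the ecdysone and juvenile hormone response moved in both directions. Of 25 tested, 9 rose and 12 fell, or 36.0% and 48.0%. Among all tested genes these shares were 32.0% and 31.5%, so the share of rises was near that of all genes. Eip75B, a nuclear receptor first known as an ecdysone-induced puff, rose from 39.3 and 36.5 CPM to 655 and 713 CPM (log2 fold change 4.17 ± 0.08, adjusted p = 1.73e-06). ftz-f1, a nuclear receptor of the interval after an ecdysone pulse, fell from 2909.6 and 2543 CPM to 299.9 and 283 CPM (log2 fold change -3.22 ± 0.09, adjusted p = 2.48e-06). In both genes the libraries of the windows did not come near each other. With Eip75B rose Kr-h1, a target of juvenile hormone signalling, from 1.90 and 1.8 CPM to 18.4 and 21.1 CPM, the repressor gene Blimp-1 from 1.39 and 0.840 CPM to 10.7 and 9.37 CPM and the receptor gene Hr39 from 71.9 and 67 CPM to 139.8 and 144 CPM. With ftz-f1 fell the repressor gene ken, from 456 and 438 CPM to 51.4 and 49.1 CPM, the receptor gene Hr4 from 121 and 109 CPM to 31.8 and 20.5 CPM and EcR, the ecdysone receptor, from 177 and 167 CPM to 113 and 111 CPM. Cyp18a1, which inactivates ecdysone, fell from 224 and 231 CPM to 21.9 and 24.1 CPM. Of 9 ecdysteroid synthesis and turnover genes 2 rose and 2 fell, with 1 rise without replicate 1 of 17–17.5 h or either library of 14–14.5 h, and dib and sad, which catalyse steps of the synthesis, stayed under 1 CPM in all libraries and did not pass the test (adjusted p = 0.596 and 0.569).

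Genes of energy supply rose in most cases. Of 24 genes of glycolysis and sugar supply, 23 rose and 0 fell, with a median log2 fold change of 0.96. Pfk, the rate-setting kinase of glycolysis, rose from 90.4 and 90.8 CPM to 204 and 219.5 CPM, Ldh, lactate dehydrogenase, from 202 and 221 CPM to 412 and 425 CPM, Gpdh1 and Gpo1, the glycerol phosphate shuttle, from 52.4 and 60.9 CPM to 608 and 641 CPM and from 63.5 and 69.9 CPM to 411 and 425 CPM, and Treh, which splits the blood sugar trehalose, from 62.1 and 73.3 CPM to 475 and 488 CPM. Hex-C, nested in CG8079, was listed at 0 early and at 19.3 and 21.8 CPM late. Nuclear respiratory chain genes rose in 63 of 70 and fell in 0, by little, with a median log2 fold change of 0.39. Cyt-c-p, cytochrome c, moved most, from 539 and 553 CPM to 1463 and 1564 CPM. Ribosome and proteasome genes mostly moved less. In the proteasome list 2 genes rose, both at least 2-fold, and 0 of the falls reached 2-fold. The highest log2 fold change there was 3.73. Among mitochondrial ribosomal protein genes 3 rose. Cytosolic ribosomal protein genes rose in 23 of 87, or 26.4%, under the 32.0% of all tested genes, and fell in 1. The number that rose was 46 with DESeq2, 9 with upper-quartile factors and 2 with all 11 libraries in the fit. It was also lower without replicate 1 of 14–14.5 h, and 6 of 40 rose among those that overlap no other gene. Mitochondrial ribosomal protein genes fell in 32 of 73, which was 10 without replicate 2 of 14–14.5 h and 17 without replicate 1 or without replicate 2 of 17–17.5 h, and proteasome genes in 19 of 36, with 12 when all 11 libraries were fitted.

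DNA replication genes fell in 19 of 33 and rose in 1, E2f1, with 12 falls when either library of 14–14.5 h was left out. The number that rose was 3 without replicate 1 and 2 without replicate 2 of 17–17.5 h, and 0 without replicate 2 of 14–14.5 h. PCNA, the sliding clamp, fell from 26.5 and 25.7 CPM to 10.4 and 8.80 CPM, the ribonucleotide reductase genes RnrL and RnrS from 23.1 and 25.1 CPM to 10.1 and 7.89 CPM and from 30 and 31.3 CPM to 9.68 and 8.26 CPM, and the helicase gene Mcm2 from 7.68 and 7.59 CPM to 5.19 and 3.71 CPM. Mitosis genes gave no stable count. Of 39, 4 rose and 8 fell, and 34 were higher in replicate 1 than in replicate 2 of 17–17.5 h. Without replicate 1, 1 rose and 10 fell, and without replicate 2, 18 rose. CycB, a mitotic cyclin that is also a germ plasm RNA, was at 127 and 125 CPM early and at 231 and 158 CPM late. stg, the phosphatase that starts mitosis, fell from 79.2 and 70.8 CPM to 37.5 and 38.3 CPM.

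Hox and segment polarity genes fell or did not pass the test. Of 8 Hox genes 5 fell and 0 rose, Scr from 41.6 and 39.1 CPM to 26.2 and 25.4 CPM and Ubx from 65 and 56.8 CPM to 37.6 and 43.4 CPM, with Abd-B at 87.1 and 76.3 CPM and 77.1 and 77.8 CPM (adjusted p = 0.383). Segment polarity, Wnt and Hedgehog genes fell in 18 of 27 and rose in 0, or 1 without replicate 2 of 17–17.5 h. The gene wg fell from 36.9 and 35.6 CPM to 13.8 and 14.8 CPM and the Hedgehog co-receptor gene boi from 26.9 and 28 CPM to 9.77 and 7.82 CPM, while en was at 16.1 and 16.2 CPM and 14.7 and 14.4 CPM (adjusted p = 0.129). Enhancer of split genes, targets of Notch, fell in 7 of 11, though nearly all were under 20 CPM, E(spl)mbeta-HLH from 15.6 and 17.6 CPM to 7.56 and 8.90 CPM. Of 35 growth factor genes 19 fell and 8 rose, and of the 20 that overlap no other gene 8 fell and 6 rose. Egfr fell from 126 and 123 CPM to 68 and 65.7 CPM and its ligand vn from 96.6 and 88.2 CPM to 30.2 and 29.7 CPM. Alk, the receptor tyrosine kinase of visceral muscle and neurons, rose from 44.9 and 44.1 CPM to 106 and 111 CPM together with its ligand jeb, from 36.2 and 30.8 CPM to 115.2 and 118 CPM.

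Activators of cell death fell as a group of 4. skl was at 31.5 and 31.7 CPM and then at 4.02 and 4.32 CPM, grim at 12.4 and 11.7 CPM and then at 1.71 and 1.58 CPM, rpr at 31.1 and 29.6 CPM and then at 5.44 and 6.10 CPM, and hid at 19.4 and 18.4 CPM and then at 5.79 and 4.45 CPM. All 4 bind the inhibitor Diap1 to free caspases, and Diap1 itself rose slightly (log2 fold change 0.26 ± 0.07, adjusted p = 0.0163). The initiator caspase gene Dronc did not pass the test (log2 fold change 0.26 ± 0.11, adjusted p = 0.0751), and the caspase gene Damm rose from 2.30 and 3.22 CPM to 11.5 and 11.3 CPM. In the whole list 7 of 16 fell and 4 rose, or 1 without replicate 1 of 14–14.5 h, and of the 8 that overlap no other gene 6 fell and 0 rose. Of 23 germ plasm and piRNA genes 7 rose, or 30.4%, near the 32.0% of all tested genes, and 5 fell, and 2 rose when replicate 1 of 14–14.5 h, replicate 2 of 14–14.5 h or replicate 1 of 17–17.5 h was left out. gcl fell from 226 and 223 CPM to 50.9 and 53.9 CPM, and vas, the germ cell helicase, was at 14.8 and 18.2 CPM and 16.4 and 18.6 CPM (adjusted p = 0.587).

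Among genes that tend to respond to handling, 4 of 18 heat shock genes rose and 2 fell, a number of falls that was 5 without replicate 1 of 17–17.5 h and 0 without replicate 2 of 14–14.5 h. With all libraries the shares were 22.2% and 11.1%, under the 32.0% and 31.5% of all tested genes. Hsp70Aa, one of several near copies, was at 1.17 and 17.9 CPM and 20.1 and 1.08 CPM, so that the libraries of the windows overlapped (adjusted p = 0.923). Histone genes, whose replication-dependent copies lack a polyA tail, fell in 5 of 29 and rose in 0. The falls made up 17.2%, under the 31.5% of all tested genes. They included genes that are replication-independent, His3.3A (log2 fold change -0.71 ± 0.06) and His3.3B (log2 fold change -0.47 ± 0.05). Both counts changed when single libraries were left out, that of falls also without replicate 1 of 17–17.5 h.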

How the data were processed

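Whole-embryo polyA RNA was sequenced by the authors in 11 libraries, of which 4 enter the comparison. Estimated counts, 1 value for each gene of each library, were made by the authors with Kallisto against dm6 and FlyBase genes, with CASAVA 1.8.2 named in the submitters' processing notes. The Kallisto version is not given in the sources used here. The authors also deposited TPM, which was not used, because it is scaled by the gene span with introns. For 12481 of 12564 genes with introns the file length equals that span (annotation: Ensembl release 115), so nested genes share reads.

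Estimated counts were rounded and fitted with edgeR 4.0.16 (R 4.3.3): filterByExpr, TMM factors, quasi-likelihood F-test, two-sided, Benjamini-Hochberg adjusted p under 0.05 over all 11267 genes tested. Standard errors were taken as |log2 fold change| over the root of F. Levels are CPM on TMM-scaled totals. DESeq2 1.42.0 and other settings were alternatives, and p-values measure the spread between 2 collections per window. On simulated counts for these libraries, edgeR recovered 98.5% of 200 genes changed 4-fold, with 13 false calls among 11170 tested. The simulation gave all genes the same spread between replicates and changed few of them, whereas 63.6% of genes were called in the real data. Its rates are therefore not error rates of the comparison. Summaries and plots used matplotlib 3.10.9 and pandas 2.3.3 under Python 3.11.15.

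The members and the 51 gene lists were chosen with earlier results of these data known. Named genes are the 12 largest rises and 12 largest falls among called genes with at least 10 CPM in the higher window and no overlap between windows, the anchors of each list, up to 4 called members per list and direction by the same limits, and the ends of each family. Others were picked after their values were seen, among them every gene described as overlapping no other gene, and Cpr47Eg, Lcp65Ad, Lcp65Ag1, Lcp65Ag2, Lcp65Ag3, TwdlC, TwdlF, TwdlN, TwdlP, TwdlW, Osi2, Osi6, Osi7, GluRIIA, GluRIIB, Muc26B, Jon65Aiv, yip7, Mal-A1, Mal-A2, Hsp70Aa, GATAe, CG10035, link, Uro and Lsp1beta. Sequences were not printed.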

Additional observations from a re-analysis of the deposited data

How the results depend on the processing

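No gene called in the fit reported above was called in the opposite direction under any of the 12 alternatives, and between 76.9% and 99.9% of its calls were kept. DESeq2 called 3513 genes higher and 2903 lower, RLE factors gave 3732 and 3342, upper-quartile factors 3295 and 4065, no filter on low counts 3557 and 3460, all 11 libraries in the fit 3175 and 3047, and the tests without mitochondrial genome genes 3602 and 3560. A replicate block in the model gave 3426 and 3260 calls. The replicate numbers name independent collections, and deviations of equally numbered libraries correlated at -0.0451 across genes, so the numbers were not taken as pairs. Leaving out single libraries gave between 3027 and 3547 genes higher and between 2493 and 3261 lower, with the lone sample of a window assumed to vary like the others. Without genes that overlap another gene, an alternative chosen after seeing the data, 1721 were higher and 1721 lower of 5323, since fewer genes were tested. Of 378 named genes that were called, 315 kept their call in every alternative that tested them. Among genes named in the report, leaving out 1 library ended the calls of Mcm2, Osi15, CycB, wor and dpn (without replicate 1 or without replicate 2 of 14–14.5 h, dpn also without replicate 1 of 17–17.5 h), of Diap1, Mhc, dysf and ase (without replicate 1 of 14–14.5 h, ase also without replicate 2 of 17–17.5 h), of m (without replicate 2 of 14–14.5 h), of Eh (without either of these or replicate 1 of 17–17.5 h) and of wupA and cac (without any of 3 libraries). The log2 fold change of link, which was 0.13, was between -1.77 and 0.93 when single libraries were left out, with -1.77 without replicate 1 of 17–17.5 h. With 2 libraries per window, the design allows no exact permutation p below 0.333 for a single gene, so the p-values rest on the spread shared across genes.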

Other observations

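Sensory families are described here against the share of all tested genes that were higher, 32.0%. Odorant-binding proteins, secreted carriers of odours and other ligands, rose in 18 of 25 tested genes and fell in 3, with a median log2 fold change of 1.87. The 19 ppk genes tested, sodium channel subunits of sensory neurons and epithelia, rose in 6 and fell in 0, a share of rises near that of all tested genes. Odorant receptor genes were tested in only 10 of 59 cases, with 1 higher and 1 lower, and gustatory receptor genes in 13 of 60, with 3 higher and 3 lower, so that most of these genes were too low to be tested in whole embryos. Over the whole list of sensory neuron and sensillum genes, 36 of 99 rose, or 36.4%, also near that share, and 16 fell, and 9 and 5 fell without replicate 1 and without replicate 2 of 14–14.5 h.

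Of 13 genes of the mitochondrial genome tested, 4 rose and 0 fell. The 30.8% that rose was near the 32.0% of all tested genes. The number that rose changed when single libraries were left out. Glutathione S-transferase genes rose in 20 of 34 and fell in 8, and UDP-glycosyltransferase genes in 16 and 10 of 32. Both families take part in the disposal of foreign compounds.

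Libraries of the wider window of 14–17 h enter only the fit of all 11 libraries. Over the 7658 genes with at least 10 CPM in 1 short window, their median absolute log2 difference was 0.348 to 0.425 from the libraries of 14–14.5 h and 0.403 to 0.501 from those of 17–17.5 h, while the short windows were 0.426 to 0.459 apart, so that over all these genes they did not lie between the short windows. Genes chosen for a large step between the short windows gave another picture. Of 994 genes that overlap no other gene and were at least 2-fold higher at 17–17.5 h, 836 had a 14–17 h mean between the means of the short windows, or 84.1%. Of 558 that were at least 2-fold lower, the number was 466, or 83.5%. On the log2 scale from 0 at 14–14.5 h to 1 at 17–17.5 h, the median position of the 14–17 h mean was 0.434 for the genes that were higher and 0.298 for those that were lower.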
